A study of Mus musculus with 6 samples.

Results

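Haemoglobin mRNAs were followed in RNA sequencing libraries of sorted cells from the palatal shelves of mouse embryos. The genes were chosen by name: the embryonic alpha-like globin Hba-x, the adult alpha globins Hba-a1 and Hba-a2, the embryonic beta-like globins Hbb-y and Hbb-bh1, the adult beta globins Hbb-b1 and Hbb-bt, and Slc4a1, which encodes the band 3 anion exchanger of the red cell membrane. They are 8 of the 23443 gene_ids in the tables, and all 8 were found. Hba-a1 and Hba-a2 were summed, which gives 7 rows. Levels are given in FPKM, the number of sequenced fragments scaled to transcript length and to library size, so different genes are compared per length. All 7 rows passed the filter on low values (1 FPKM or more in 2 libraries or more), but Slc4a1 passed it only through the E12.5 pair.

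The study compared Osr2RFP/- mutants with Osr2RFP/+ controls, Osr2 being a transcription factor gene of the palatal mesenchyme. Every library carried the Osr2RFP allele, which marks Osr2-expressing cells with a red fluorescent protein, and only RFP-positive cells were sorted. There was 1 library of each genotype at E12.5 and there were 2 of each at E13.5, all on a mixed strain background. The titles carry the number 2962 for both E12.5 libraries, 3047 for the first E13.5 mutant and 3048 for the other E13.5 libraries, numbers whose meaning is not given. Age and title number cannot be told apart. Nothing states that the libraries came from separate embryos, and the p-values cover no more than the spread among these 6 libraries.

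In the mouse, the first circulating red cells form in the yolk sac, carry nuclei and make embryonic haemoglobin from zeta (Hba-x) with epsilon-y (Hbb-y) and beta-h1 (Hbb-bh1) chains. As they mature in the blood they change from beta-h1 towards epsilon-y and then add adult chains. Later red cells come from the fetal liver and make adult alpha and beta chains. Palatal mesenchyme is not known as a site of globin synthesis, and the sorted cells were selected for RFP, not for a red cell marker.

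The tables gave 14100000 to 17970000 estimated fragments per library, from the deposited coverage with fragments read as 2 ends of 75 bases. The estimated fragments behind a member ranged from 3929 to 11433 for Hba-x and from 1282 to 3454 for Hbb-y. Hbb-bh1 rested on 22 to 227, Hbb-b1 on 22 to 96, Hbb-bt on 53 to 323 and Slc4a1 on 48 to 383, so these are the less precise values. Osr2 itself had 162.8 FPKM in the E12.5 mutant and 215.1 in the E12.5 control. At E13.5 it had 68.5 and 88.4 FPKM in mutants, against 138.3 and 151.7 in controls. The 16 genes of a palatal mesenchyme list summed to 1116 to 1300 FPKM per library.

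Embryonic globins led in every library. Hba-x, the zeta chain gene, ranked between 32 and 118 among 23418 genes ordered by FPKM, and Hbb-y ranked between 142 and 435. Hba-x stood at 469.6 FPKM in the E12.5 mutant and 446.0 in the E12.5 control. At E13.5 the mutants gave 322.8 and 180.0 FPKM, the controls 375.7 and 340.8. Both E12.5 values lay above all 4 E13.5 values, and E13.5 mutant 2 was the lowest library.

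Hbb-y stood at 135.9 FPKM in the E12.5 mutant and 125.0 in the E12.5 control. At E13.5 the mutants gave 102.4 and 54.2 FPKM and the controls 158.6 and 118.9. The highest value was that of an E13.5 control, so the ages overlapped. Hbb-bh1, the other embryonic beta-like gene, was far lower, at 6.67 FPKM in the E12.5 mutant and 8.43 in the E12.5 control, and at 1.73 and 0.929 in the E13.5 mutants and 1.32 and 1.399 in the E13.5 controls. Its E12.5 pair lay above every E13.5 library.

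The summed adult alpha globins stood between Hbb-y and Hbb-bh1. Their level was 110.3 FPKM in the E12.5 mutant and 99.99 in the E12.5 control, against 38.8 and 23.9 in the E13.5 mutants and 48.1 and 32.2 in the E13.5 controls. The ages did not overlap, and the genotypes at E13.5 did. Hbb-bt, an adult beta chain gene, stood at 13.7 and 11.5 FPKM in the E12.5 mutant and control, at 3.78 and 2.25 in the E13.5 mutants and at 6.49 and 5.03 in the E13.5 controls. Here neither the ages nor the E13.5 genotypes overlapped.

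Hbb-b1 stood at 4.14 and 3.61 FPKM in the E12.5 mutant and control, at 1.50 and 1.05 in the E13.5 mutants and at 1.16 and 0.831 in the E13.5 controls. The lowest Hbb-b1 value was that of E13.5 control 2, whereas E13.5 mutant 2 was lowest for each of the other 6 rows. Slc4a1 stood at 1.74 and 1.92 FPKM at E12.5, at 0.350 and 0.274 in the E13.5 mutants and at 0.502 and 0.525 in the E13.5 controls. Its FPKM was a small fraction of the globins': Hba-x was 231.9 to 269.7 times Slc4a1 at E12.5 and 649.4 to 920.9 times at E13.5.

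**Figure D1:**
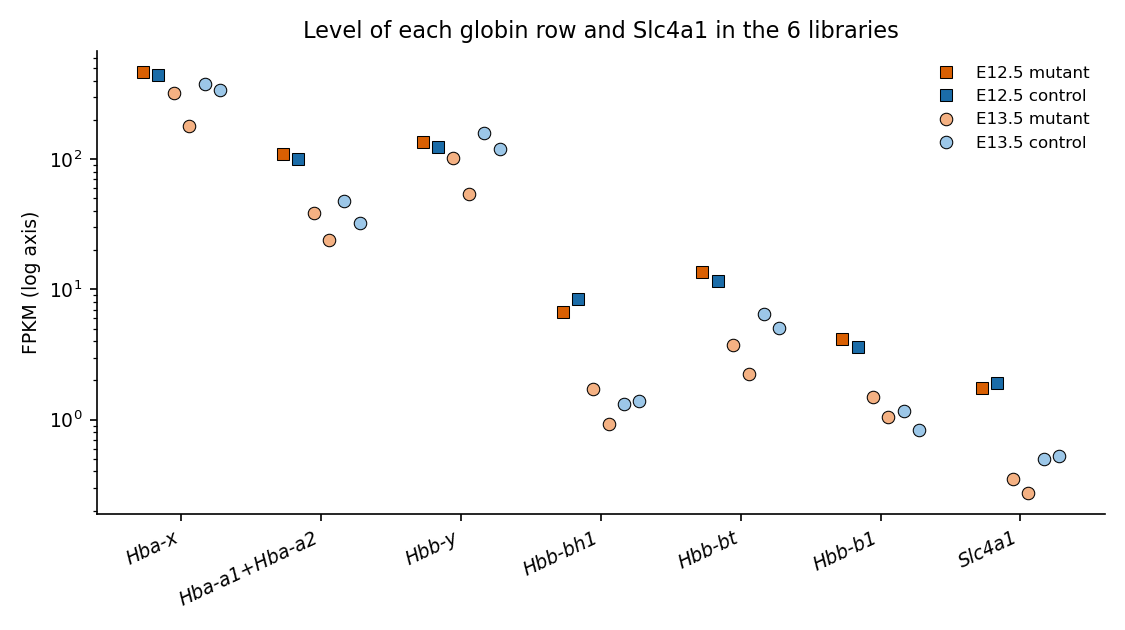
FPKM per library (log axis) of the 7 rows, grouped by age and genotype; each point is 1 library. The E12.5 libraries lie above all E13.5 libraries for every row except Hbb-y.

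The members lie in the alpha and beta globin clusters, apart from Slc4a1. Positions are those of the tables on GRCm38 (mm10), and the start of 7 of the 8 genes was that of RefSeq on GRCm38.p6. Hba-x spans chr11:32276600-32278115 on the plus strand. The tables place both Hba-a1 and Hba-a2 transcripts at each of 2 places, the first starting at chr11:32283672-32284486 for Hba-a1 and the second at chr11:32296489-32297303. On the minus strand of chromosome 7 lie Hbb-bt (chr7:103812524-103813923), Hbb-b1 (chr7:103826532-103827929), Hbb-bh1 (chr7:103841638-103843162) and Hbb-y (chr7:103851754-103853207). Slc4a1 spans chr11:102348820-102365281. Hbb-b1 shares its place with Hbb-bs, which was listed at 0.0442 FPKM or less in every library, so reads there may be divided between these names.

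The coding sequences of Hba-a1 and Hba-a2 in GENCODE M21 are alike at 428 of 429 bases. Of the 355 stretches of 75 bases in them, the length of 1 read end, 306 (86.2%) are the same in both. A single read end from such a stretch cannot be given to either gene. Pairs of ends and untranslated bases were not compared. The stretch from base 341 to base 421, counted from the start codon, is shown because it holds the single difference, C381T, whose base is in capitals.
Hba-a1: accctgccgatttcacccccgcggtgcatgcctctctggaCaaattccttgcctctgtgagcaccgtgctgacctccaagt
Hba-a2: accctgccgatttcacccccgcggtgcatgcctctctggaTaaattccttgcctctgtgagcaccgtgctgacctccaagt

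Taken by gene_id, the adult alpha globins changed places between libraries. Hba-a1 was listed at 42.8 FPKM in the E12.5 mutant and 0.0994 in the E12.5 control, at 0.279 and 0.132 in the E13.5 mutants and at 47.6 and 30.5 in the E13.5 controls. Hba-a2 was listed at 67.5 and 99.9 FPKM in the E12.5 mutant and control, at 38.5 and 23.8 in the E13.5 mutants and at 0.551 and 1.71 in the E13.5 controls. The Hba-a1 name thus held 98.9% and 94.7% of the pair in the E13.5 controls and 0.720% and 0.553% in the E13.5 mutants. Taken by place, with both names added, the first place held 57.0% to 63.8% of the adult alpha FPKM (61.4% ± 2.49, SD over 6 libraries). The split by name therefore ranged over nearly the whole scale while the split by place did not. In the E12.5 mutant the Hba-a1 name held 0.201% at the first place and 97.4% at the second.

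**Figure D2:**
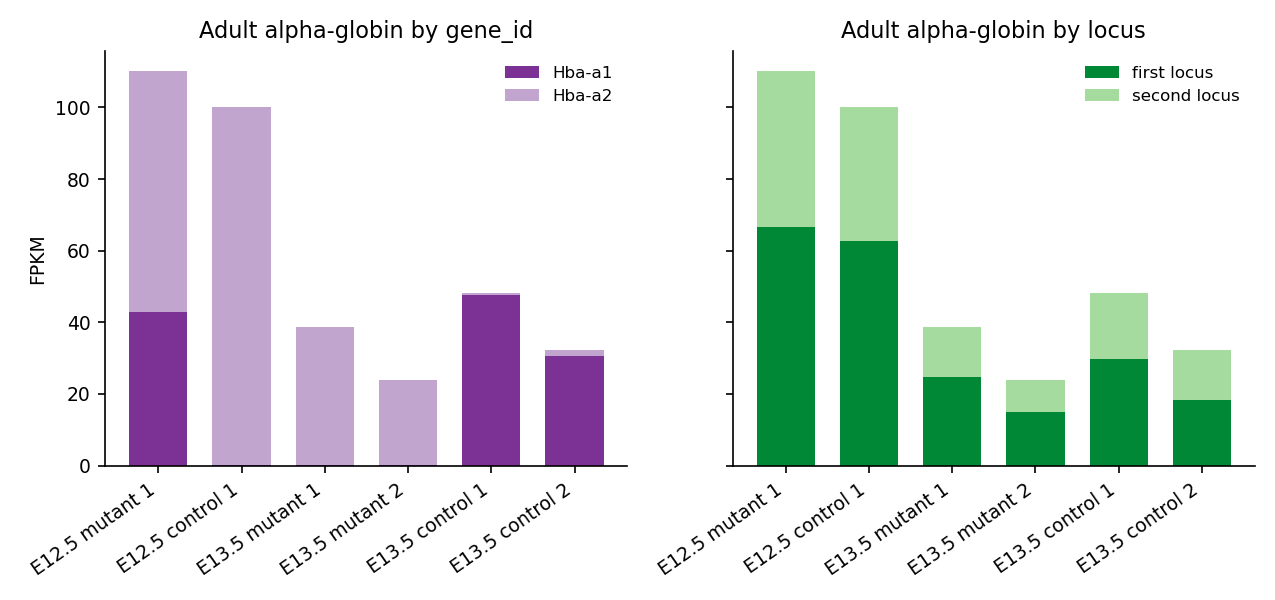
Stacked bars of adult alpha-globin FPKM in each library (linear axis), divided by gene_id on the left and by place on the right. By name, Hba-a1 holds from 0.0994% to 98.9% of a bar; by place, the first locus holds from 57.0% to 63.8%.

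As separate gene_ids at E13.5, Hba-a1 was lower in mutants by -5.02 on the log2(FPKM + 1) scale (SE 0.192, limma adjusted p = 5.39e-06) and Hba-a2 was higher by 3.93 (SE 0.275, adjusted p = 0.000437). In that fit 1.29% of rows were called. Summed, the difference was -0.36 (SE 0.244, adjusted p = 0.788), so neither gene_id is reported as changed between genotypes. All other values use the sum.

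The adult beta genes have a like pair in GENCODE M21, Hbb-bs and Hbb-bt, with 443 of 444 coding bases alike and 342 of 370 stretches of 75 bases (92.4%) shared. The last coding bases, from 377 to 444, are shown because they hold the single difference, C417T, in capitals.
Hbb-bs: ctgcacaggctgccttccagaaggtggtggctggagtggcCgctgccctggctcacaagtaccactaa
Hbb-bt: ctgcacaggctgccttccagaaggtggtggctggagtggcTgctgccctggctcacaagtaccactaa
Reads could thus be divided between Hbb-bt and the gene at the Hbb-bs and Hbb-b1 place, and the 2 adult beta rows are of uncertain assignment. The embryonic genes share no such stretch with the others: Hba-x matched Hba-a1 at 64.1% of aligned coding bases, Hbb-y matched Hbb-bh1 at 76.4%, and Hbb-y matched Hbb-bt at 74.1%.

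Between E12.5 and E13.5 the adult globins and Hbb-bh1 fell, while Hba-x and Hbb-y did not pass the test. In the additive limma fit of age and genotype, 4 of the 6 globin rows were lower at E13.5 at an adjusted p under 0.05, and none was higher. Over all 10798 rows tested, 9.38% were lower in this sense and 16.9% were called in either direction. Slc4a1 is left out of these counts, since it reached 1 FPKM in the E12.5 pair alone and so had to be lower at E13.5 to be tested. The median difference of the 6 globin rows was -1.30 on the log2 scale, against -0.07 over all rows. In the bulk libraries, fewer cells with globin mRNA and less of it per cell cannot be told apart, and its source was not tested.

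Hbb-bh1 fell from a mean of 7.55 FPKM at E12.5 to 1.35 at E13.5, by -1.87 on the log2(FPKM + 1) scale (SE 0.146, adjusted p = 0.000116). At these low values the size depends on the pseudocount: it was -2.42 with 0.1 and -0.98 with 5, so the rows are not ranked by size. The summed adult alpha globins fell from 105.2 to 35.8 FPKM, by -1.57 (SE 0.222, adjusted p = 0.00232). The adult beta gene Hbb-bt fell by -1.40 (SE 0.226, adjusted p = 0.00395). These are folds of 3.65, 2.97 and 2.64 on that scale. Hbb-b1 fell by -1.20 (SE 0.127, adjusted p = 0.000496), and with Hbb-b1, Hbb-bs and Hbb-bt summed the difference was -1.46 (SE 0.205, adjusted p = 0.00225). For Slc4a1, whose direction the filter fixed, the means were 1.83 and 0.413 FPKM and the difference was -1.01, given as a description.

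Hba-x went from a mean of 457.8 to 304.8 FPKM, a difference of -0.64 (SE 0.246, adjusted p = 0.102). Hbb-y had means of 130.5 and 108.5 FPKM and a difference of -0.36 (SE 0.281, adjusted p = 0.399). Without overlap of the ages, 5 of the 6 globin rows were lower at E13.5, against 22.9% of all rows tested. The call of Hbb-bt was lost without the E12.5 mutant (difference -0.90, adjusted p = 0.0571) and with no filter on low values (adjusted p = 0.0658). Those of the adult alpha sum, Hbb-b1 and Hbb-bh1 held in every alternative run.

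**Figure D3:**
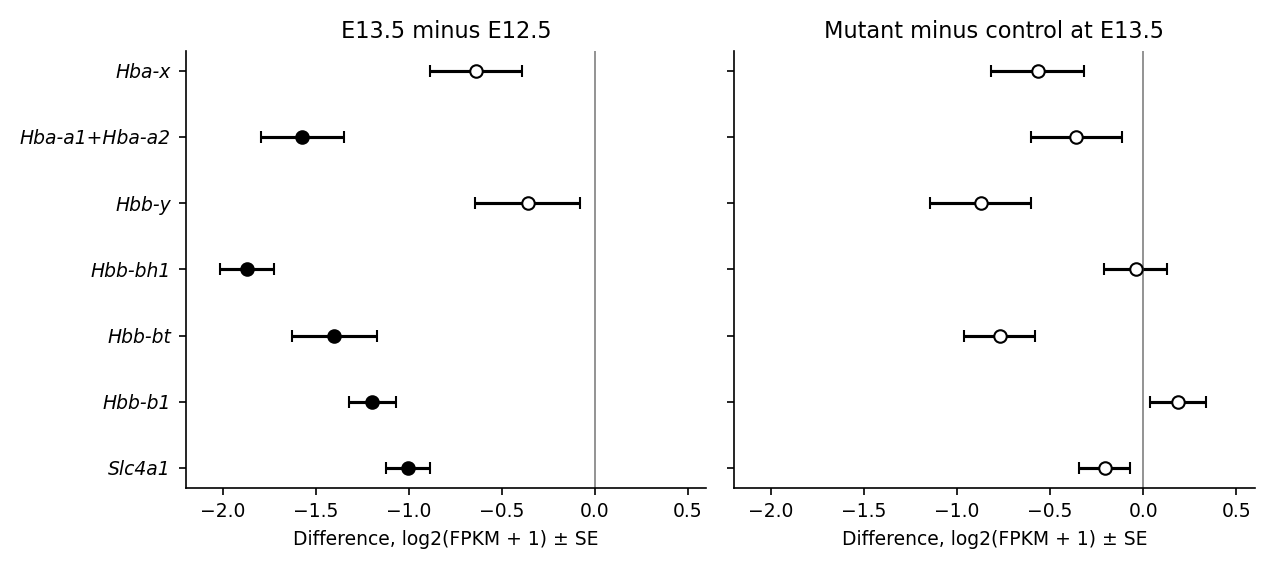
Differences on the log2(FPKM + 1) scale with their standard errors for the 7 rows, for age (E13.5 minus E12.5) and for genotype at E13.5 (mutant minus control); filled points had an adjusted p under 0.05 and open points did not, and the age direction of Slc4a1 was fixed by the filter. Age differences run from -1.87 for Hbb-bh1 to -0.36 for Hbb-y; genotype differences run from -0.87 for Hbb-y to 0.19 for Hbb-b1.

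Embryonic chains held a larger share of globin mRNA in every E13.5 library than in either E12.5 library. Hba-x held 81.0% and 81.7% of alpha-like FPKM in the E12.5 mutant and control, 89.3% and 88.3% in the E13.5 mutants and 88.6% and 91.4% in the E13.5 controls. The E13.5 mean was 89.4% ± 1.38 (SD, n = 4), 8.06 percentage points above that at E12.5. All 4 E13.5 libraries lay above both E12.5 libraries, and the exact permutation test gave p = 0.133 (two-sided), the smallest that 2 libraries against 4 allow.

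The embryonic share of beta-like FPKM was 88.9% and 89.8% at E12.5 and 94.3% to 95.4% at E13.5, a difference in means of 5.73 points, with the same exact p = 0.133. With Hbb-b1 as the sole adult beta gene that difference was 1.55 points. Adult chains of both kinds made up 17.3% and 16.6% of globin FPKM at E12.5 and 7.63% to 10.4% at E13.5. Within the embryonic beta pair, Hbb-bh1 held 4.68% and 6.31% at E12.5 and 0.828% to 1.68% at E13.5. Alpha-like genes as a whole held 78.3% and 78.6% at E12.5 and 71.7% to 77.7% at E13.5 (mean difference -3.25 points, exact p = 0.133, and -2.06 points without E13.5 control 1). The 3 shares tested have a Benjamini-Hochberg adjusted p of 0.133 each.

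**Figure D4:**
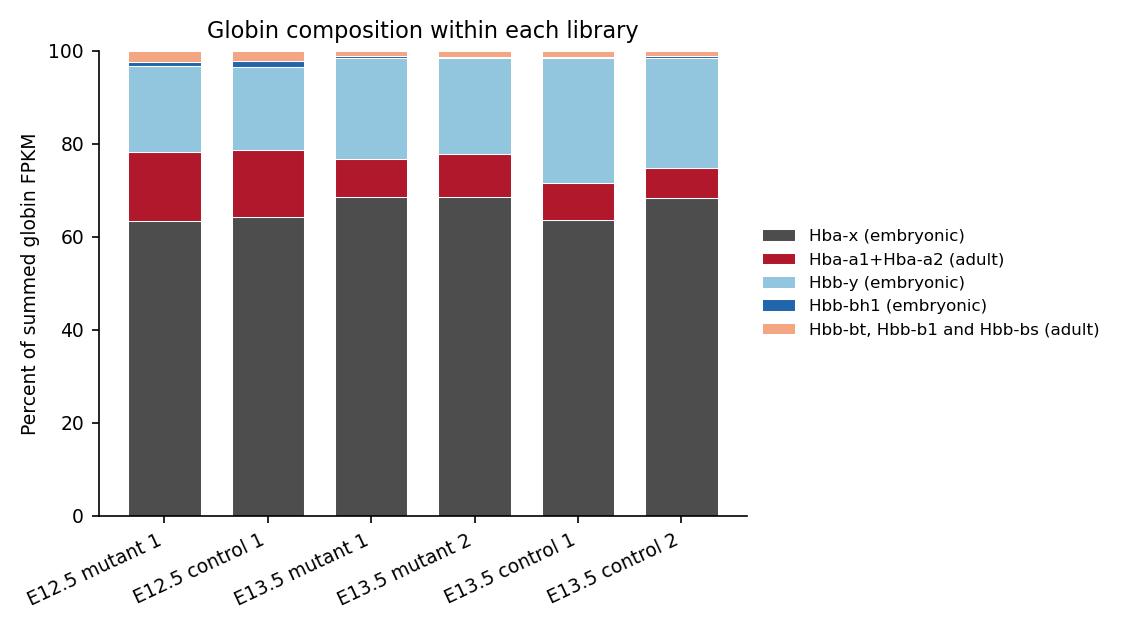
Stacked bars of globin FPKM in each library, in percent of the summed globin genes. Hba-x holds 63.4% to 68.6% in all 6 libraries, and the adult chains hold less in the E13.5 libraries than in the E12.5 pair.

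All globin rows together summed to 740.5 and 694.6 FPKM at E12.5, to 471.0 and 262.4 in the E13.5 mutants and to 591.5 and 499.2 in the E13.5 controls. This was 0.391% and 0.450% of the library's FPKM at E12.5 and 0.162% to 0.355% at E13.5. The order by total was not the order by make-up: E13.5 mutant 2 had the lowest sum, while its adult share, 10.4%, was the highest of the E13.5 libraries.

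Between the E13.5 genotypes no row passed the test, and 6 of the 7 differences were below 0, with a median of -0.36 against 0.04 over all rows. Hba-x averaged 251.4 ± 100.9 FPKM (SD, n = 2) in mutants and 358.3 ± 24.7 in controls, Hbb-y 78.3 ± 34.0 against 138.8 ± 28.1, and Hbb-bt 3.01 ± 1.08 against 5.76 ± 1.03. The differences were -0.57 for Hba-x (SE 0.252, adjusted p = 0.542), -0.87 for Hbb-y (SE 0.271, adjusted p = 0.253) and -0.77 for Hbb-bt (SE 0.190, adjusted p = 0.119). Hbb-bh1 (-0.04, adjusted p = 0.971), Slc4a1 (-0.21, adjusted p = 0.784) and Hbb-b1 (0.19, adjusted p = 0.834) lay nearer to 0. With limma 0 of 7 rows were called, against 1.26% of all rows, and 2, Hbb-y and Hbb-bt, had an unadjusted p under 0.05.

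The mutants lay below the controls without overlap in 4 of the 7 rows (Hba-x, Hbb-y, Hbb-bt and Slc4a1), against 13.2% of all rows. These rows do not count as independent, since E13.5 mutant 2 was the lowest library for every row but Hbb-b1. Slc4a1 was under 1 FPKM in every E13.5 library and was tested only through the E12.5 pair. The 2 mutants differed from each other, and which of them is used decides the result. Within the libraries titled 3048, that is without E13.5 mutant 1, the differences were -0.99 for Hba-x and -1.32 for Hbb-y (adjusted p = 0.00222 each) and -1.05 for Hbb-bt (adjusted p = 0.00799). These set 1 mutant against 2 controls, and the lone mutant is assumed to vary like the controls, which alone give the spread. Without E13.5 mutant 2 they were -0.15, -0.42 and -0.49, with adjusted p = 0.811, 0.353 and 0.224. Hbb-bt also passed without E13.5 control 2 (-0.93, adjusted p = 0.0434).

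The 2 adult beta rows were not divided alike in the E13.5 genotypes. In mutants Hbb-bt held 71.0% and 67.9% of adult beta FPKM, in controls 84.7% and 85.8%, with 76.7% and 76.1% in the E12.5 mutant and control. The difference in share was not tested, and the assignment of reads between these genes is uncertain. Summed, the adult beta genes differed by -0.56 between the E13.5 genotypes (adjusted p = 0.330).

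Across both ages, no row passed the genotype test, with differences from -0.54 for Hbb-y (adjusted p = 0.423) to 0.18 for Hbb-b1 (adjusted p = 0.531). With limma 0 of 7 rows were called, none with an unadjusted p under 0.05, against 1.47% of all rows. At E12.5, where 1 library stands against 1, there is no replicate check. Of the 5 rows at 5 FPKM or more in either library, none differed by 1 or more on the log2 scale, as 1.05% of 6099 genes did. The differences, mutant minus control, ran from -0.30 for Hbb-bh1 to 0.23 for Hbb-bt, and 5 of the 7 were above 0. That direction rests on the authors' scaling: after scaling to 1 FPKM sum all 7 were below 0, from -0.55 to -0.04, while the median gene went from 0.23 to -0.04.

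The interaction of genotype and age asks whether the genotype difference itself changed between the ages. It was -0.99 for Hbb-y (adjusted p = 0.834), -1.01 for Hbb-bt (adjusted p = 0.730) and -0.64 for Hba-x (adjusted p = 0.865). With limma 0 of 7 rows were called, against 0.0185% of all rows, and 1, Hbb-bt, had an unadjusted p under 0.05. Without E13.5 mutant 1, Hba-x (-1.06) and Hbb-y (-1.44) had an adjusted p of 0.0419 each, but 3 of the 4 groups then held 1 library and the 2 controls alone gave the spread.

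Several genes that define red cells were near or under 1 FPKM, far below Hba-x, Hbb-y and the adult alpha sum. At E13.5 the globin rows Hbb-bh1 and Hbb-b1 were near or under 1 FPKM as well. Other genes on the red cell lists were higher, such as Epb4.1 at 23.4 to 34.9 FPKM and Prdx2 at 128.2 to 253.7. The counts per list follow below. Alas2, the erythroid enzyme that starts haem synthesis, stood at 0.609 and 0.670 FPKM in the E12.5 mutant and control, at 0.366 and 0.223 in the E13.5 mutants and at 0.466 and 0.519 in the E13.5 controls. It was under the filter and was not tested, but its order over the groups was that of Slc4a1. Klf1, the erythroid factor that activates adult beta globin, stood at 1.13 and 1.24 FPKM at E12.5 and 0.0909 to 0.667 at E13.5. Like Slc4a1 it passed the filter only through the E12.5 pair, which fixed the direction of its age difference (-0.78). Gata1, the erythroid master factor, was listed at 0 in 5 of 6 libraries. Whether red cells carried through the sort account for the globin values was not tested.

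Genes under 1 FPKM in every library were 10 of 17 in an erythroid membrane list, 2 of 18 for haem synthesis and iron, 7 of 20 among other red cell genes and 7 of 18 among erythroid factors and globin regulators. Of all 23443 gene_ids, 10281 to 10498 reached 1 FPKM in a given library, so such low values are not particular to these lists. Of 6 membrane genes tested, 2 were called with age, Slc4a1 and Aqp1, a water channel, and both passed the filter only through the age where they were high. Of 16 haem synthesis and iron genes tested, Uros, which makes uroporphyrinogen III, fell with age (-0.64, adjusted p = 0.00901). Blvrb, a biliverdin reductase, stood at 0.973 and 0.990 FPKM at E12.5 and 3.86 to 4.28 at E13.5, and it too passed the filter only through the E13.5 libraries. The median age difference of the 16 was -0.05, against -0.07 over all rows. Of 12 other red cell genes tested, Bpgm, which makes 2,3-bisphosphoglycerate, fell (-0.64, adjusted p = 0.00551). It stood at 19.7 and 16.4 FPKM at E12.5 and 10.5 to 11.6 at E13.5. None of these 3 lists had a call between E13.5 genotypes. Over all rows tested, 16.9% were called with age and 1.26% between E13.5 genotypes, so these small counts are not read as results about the lists.

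**Figure D5:**
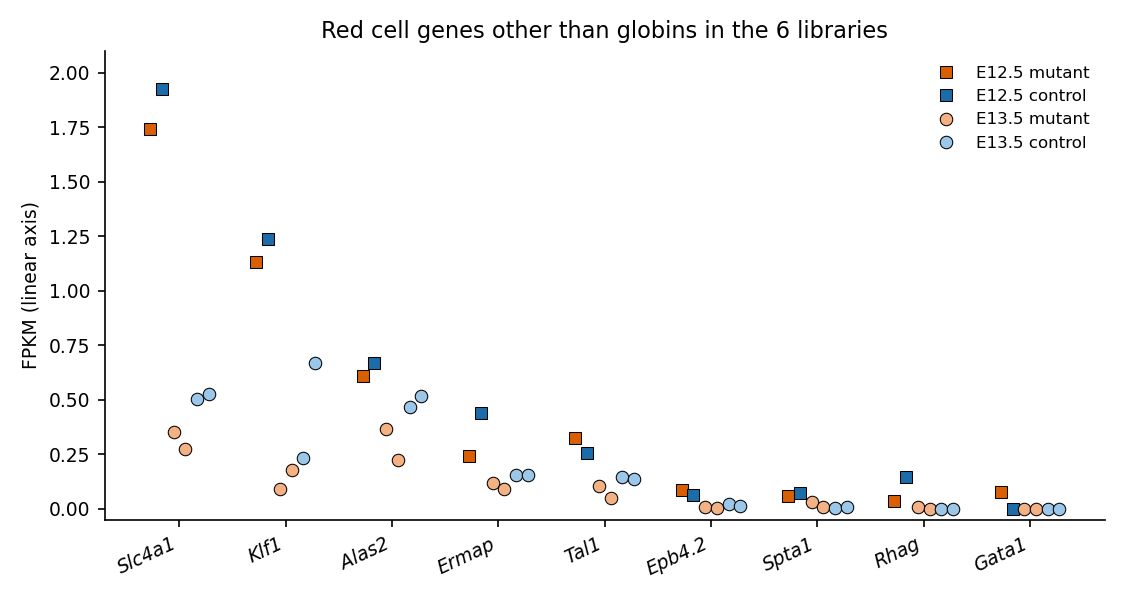
FPKM per library (linear axis) of Slc4a1 and 8 other red cell genes with low values. Each point is 1 library. Slc4a1 and Klf1 are the 2 shown that exceed 1 FPKM in any library, in the E12.5 pair.

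Among 10 tested erythroid factors and globin regulators, 4 were called higher and 2 lower with age, against 16.9% of all rows called in either direction. Klf1 is among the 2, and the filter fixed its direction, so its call does not count as a result. Between E13.5 genotypes 3 were called, all higher in mutants, against 1.26% of all rows. The list was chosen with earlier results of these data known, so neither count is a test of the list as a set. Sox6, a repressor of Hbb-y in mouse definitive red cells, stood at 9.42 and 12.2 FPKM in the E13.5 mutants and 2.40 and 2.08 in the controls (1.86, SE 0.146, adjusted p = 0.000831). Runx1, a factor of blood stem cell emergence, stood at 7.35 and 7.63 FPKM against 2.84 and 2.39 (1.23, adjusted p = 0.00221). Mecom, a zinc finger factor of blood stem cells whose transcripts lie at separate places in the tables, stood at 9.35 and 13.6 FPKM against 4.46 and 3.11 (1.37, adjusted p = 0.0119). Bcl11a, a repressor of embryonic and fetal globin genes, stood at 13.6 to 22.2 FPKM and passed no test. These genes are not limited to red cells, and their levels in mesenchyme and in blood cells cannot be told apart here.

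Klf3 (0.67), Runx1 (1.05), Sox6 (0.49) and Zbtb7a (0.52) rose with age, and Mecom fell by 1.32. Cygb, a haem protein of connective tissue cells rather than of blood, was the only other globin gene tested. It stood at 0.895 and 1.69 FPKM in the E12.5 mutant and control and 2.31 to 3.97 at E13.5, and rose by 0.79 (adjusted p = 0.00674). Hbb-bh2 was listed at 0 in every library.

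Markers of other cells were mostly low. Of 16 leukocyte genes, 14 were under 1 FPKM in every library, and the list summed to 1.36 to 5.89 FPKM. Of 11 megakaryocyte and platelet genes, 10 were under 1 FPKM in every library, and the list summed to 1.43 to 2.86 FPKM, led by Gp1bb. The 14 endothelial genes summed to 10.5 and 8.44 FPKM at E12.5 and 12.4 to 22.5 at E13.5. Most of each sum was Ramp2, at 9.18 and 6.52 FPKM at E12.5 and 9.59 to 19.6 at E13.5, which rose with age (0.89, adjusted p = 0.0336). Eng passed the filter only through E13.5 libraries, and the other 12, among them Pecam1 at 0.133 FPKM or less, were under 1 FPKM in every library. The 12 oral epithelial genes summed to 3.25 and 3.50 FPKM at E12.5 and 5.31 to 6.72 at E13.5. The part of these cells in the globin differences was not tested.

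The 6 genes outside the members whose profile over the 6 libraries was closest to the summed members, by root mean square distance of centred log2(FPKM + 1) values, were Bloc1s4 (0.174), Toporsos (0.179), Polb (0.194), Ypel4 (0.203), Dhrs3 (0.208) and Myeov2 (0.215), out of 10303 genes compared. Hba-x, which made up most of the sum, had a distance of 0.053. Hbb-y had a distance of 0.202 and Slc4a1 of 0.324, with 190 outside genes at or under that of Slc4a1. Hbb-bh1 was the farthest member, at 0.618, with 8741 outside genes at or under that distance. The same count was 319 for Hbb-bt, 2028 for the adult alpha sum and 2106 for Hbb-b1. These distances are to the sum, which follows Hba-x, and the members were not compared with one another. Whether the other members share a profile was not tested.

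Promoters are shown as the 120 bases before the RefSeq start on GRCm38.p6. Hbb-bt passed the age test, and Hba-a1 did so only as part of the adult alpha sum. Hba-x and Hbb-y did not pass it, though Hba-x was lower at E13.5 without overlap of the ages. RefSeq promoters were matched for 5 of the 8 members. Capitals mark motif letters known from globin promoters, on either strand: the CACCC box, the CCAAT box, the GATAA core bound by GATA factors, and the ATAAA part of a TATA box.
Hba-x, chr11:32276480-32276599, plus strand: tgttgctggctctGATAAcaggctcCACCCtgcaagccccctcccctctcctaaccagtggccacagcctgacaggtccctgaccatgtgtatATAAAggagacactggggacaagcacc
Hbb-y, chr7:103853208-103853327, minus strand: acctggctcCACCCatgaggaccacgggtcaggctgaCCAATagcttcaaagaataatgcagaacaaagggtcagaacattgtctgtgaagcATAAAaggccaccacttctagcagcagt
Hba-a1, chr11:32283552-32283671, plus strand: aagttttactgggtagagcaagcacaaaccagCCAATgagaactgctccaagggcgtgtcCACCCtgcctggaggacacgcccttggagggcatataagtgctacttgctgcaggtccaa
Hbb-bt, chr7:103813924-103814043, minus strand: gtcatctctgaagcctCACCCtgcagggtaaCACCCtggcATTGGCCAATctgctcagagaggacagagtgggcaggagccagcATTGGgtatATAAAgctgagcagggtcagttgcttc
CACCC lay in all 4 windows, and in 31.7% of 32851 promoter windows of that length. CCAAT lay in all but that of Hba-x (21.3% of windows), GATAA in that of Hba-x alone (10.5%), and ATAAA in those of Hba-x, Hbb-y and Hbb-bt (20.2%). Only these exact letters were searched. The Hba-a1 window holds tataag, which ATAAA does not match, so the missing mark does not mean that a TATA box is absent. In Hbb-bt the capitals ATTGG mark the CCAAT box of the opposite strand, and one of them runs on into a box of the same strand.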

How the data were processed

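The authors deposited, per library, a Cufflinks table with 1 line per RefSeq transcript giving FPKM, a coverage signal (mean read depth over the transcript) and a length. The submitters' processing notes name Bowtie 0.12.7 and TopHat 1.4.1 with builds mm9 and mm10. For Cufflinks the version is not given in the sources. Per the labels' protocols, shelves were digested with trypsin at 37 °C for 4 minutes, strained at 40 µm and sorted for RFP, and poly A libraries were made with 15 PCR cycles and read as pairs of 75 bases. Deposited FPKM were summed per gene_id, and 25 gene_ids with a failed estimate were left out. Coverage was used only to estimate depth and as an alternative for the make-up of globin FPKM. Read counts were not used, so values carry no counting interval.

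Rows with at least 1 FPKM in at least 2 libraries (10798) were tested on log2(FPKM + 1), which understates changes of low genes, with limma 3.58.1 (intensity trend, R 4.3.3, two-sided, Benjamini-Hochberg over all rows, threshold 0.05), and the scripts were tested on simulated data. Genotype at E13.5 and the interaction came from a model with a mean for each group, and an additive fit gave age and genotype across both ages. In the first, the lone E12.5 libraries are assumed to vary like the others. Members and lists were chosen with earlier results of these data known. All members were named, with the 6 genes closest in profile. List genes were named by choice: not all those past the threshold are named, and some named genes passed no test or were not tested. Alternatives changed the pseudocount, filter, scaling, trend, handling of near-identical genes and libraries used. A withheld item is not reported here.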

Additional observations from a re-analysis of the deposited data

Results flagged for a closer look

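The adult alpha globins, when tested as separate gene_ids, passed the test for an interaction of genotype and age. Most coding stretches of the length of 1 read end are the same in both genes, and E12.5 had 1 library per genotype. Neither gene_id is therefore reported as changed. The interaction was -10.34 on the log2(FPKM + 1) scale for Hba-a1 (limma adjusted p = 1.82e-06) and 4.49 for Hba-a2 (adjusted p = 0.0152). Summed, it was -0.50 (adjusted p = 0.887).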

How the results depend on the processing

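Counts of called rows moved with the processing, while most values of single members kept their direction and their side of the threshold. For genotype at E13.5 the 136 calls became 0 with no filter on low values (limma, 1526 rows at an unadjusted p under 0.05), 75 with a mean of at least 1 FPKM and 76 with median ratio scaling, and ran from 119 to 297 with 1 library left out. Its calls among members were 2 with separate gene_ids and 0 to 3 with 1 library left out. Hbb-bh1 then ran from -0.29 to 0.21. For the interaction the 2 calls became 1 with a pseudocount of 5, 13 with no filter, 9 with the mean filter, 1 with median ratio scaling and 4 with separate gene_ids, and ran from 11 to 52 with 1 library left out. Calls among members were 2 with separate gene_ids and 0 to 2 with 1 library left out. The interaction of Hbb-b1 was -0.021 with a pseudocount of 5 and ran from -0.11 to 0.17 with 1 library left out, and that of Slc4a1 was 0.066 with scaling to 1 FPKM sum, with or without the members. For age the 1822 calls became 681 with no filter and ran from 527 (without the E12.5 mutant) to 1840 with 1 library left out, with 3 to 5 calls among members. The age difference of Hbb-y then ran from -0.86 to 0.13. For genotype across both ages the 159 calls became 0 with no filter (1957 at an unadjusted p under 0.05) and ran from 72 (without E13.5 mutant 1) to 186. The adult alpha sum then ran from -0.36 to 0.048. The causes were not tested. Scaling also moved the split by direction: age calls were 809 higher and 1013 lower, 1035 and 713 with scaling to 1 FPKM sum, and 1069 and 865 with median ratio scaling. Genotype calls across both ages were 119 higher and 40 lower, then 78 and 74, then 65 and 51. Slc4a1 was not tested with an E12.5 library left out or with the mean filter. With the title number as a replicate block, chosen after seeing the data and with 2 residual degrees of freedom, genotype across both ages had 65 calls and 0 among members (limma, 1 at an unadjusted p under 0.05, Hbb-bh1), with differences from -0.71 for Hbb-y to 0.094 for Hbb-b1; the labels do not say whether the number pairs the libraries. Depth limits Hbb-b1 and Hbb-bh1 most, with 22 estimated fragments in their lowest library.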
